A study of Mus musculus with 24 samples.

Results

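The synaptic vesicle release machinery was described here as 39 mouse genes, chosen by gene symbol from their known place in vesicle docking, priming, fusion and recycling, out of 37991 genes in the count table. All 39 were matched to an Ensembl gene ID, and all 39 passed the filter on low counts in both experiments of the study, where 17597 genes were tested in floxed and 15249 in wild-type mice. They are 3 synapsins (Syn1, Syn2, Syn3), 4 SNARE proteins (Stx1a, Snap25, Vamp1, Vamp2), 8 calcium sensors (Syt1, Syt2, Syt4, Syt5, Syt7, Doc2a, Doc2b, Rph3a), 3 complexins (Cplx1, Cplx2, Cplx3), 7 priming and SNARE recycling genes (Unc13a, Unc13b, Unc13c, Cadps, Cadps2, Stxbp5, Nsf), 5 active zone scaffold genes (Rims1, Rims2, Rims3, Bsn, Pclo), 3 Rab3 GTPases (Rab3a, Rab3b, Rab3c) and 6 vesicle membrane proteins (Sv2a, Sv2b, Sv2c, Syp, Syngr1, Syngr3). mRNA was sequenced from punches of mouse nucleus accumbens, the ventral striatum, in 24 libraries, 3 in each of 8 groups. Every library held pooled mRNA of 4 mice, so n counts libraries. Mice of the floxed experiment were all stressed, were Dnmt3a2lox/2lox on a C57BL/6J background, and had received AAV-CRE (Cre females, Cre males) or AAV-GFP (GFP females, GFP males). In the wild-type experiment C57BL/6J mice without virus were stressed (stressed females, stressed males) or were controls (control females, control males). The series title calls the stress a subchronic variable stress. Ages, the promoter of the virus and the share of infected cells were not given in the sources used here, and the protocol names dorsal striatum beside nucleus accumbens for the punches.

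Release begins when vesicles, held in clusters by synapsins and carrying a Rab3 GTPase, are brought to the active zone by scaffold proteins of the RIM, Bassoon and Piccolo families. There Munc13 (Unc13) and CAPS (Cadps) proteins prime them by helping syntaxin, SNAP-25 and synaptobrevin (Vamp) form the SNARE complex. Complexins hold and promote that complex, synaptotagmins bind calcium and trigger fusion, and Nsf takes the used complexes apart. Most striatal neurons are GABAergic medium spiny neurons, while the terminals that reach them from cortex and thalamus hold proteins whose mRNA lies mainly in cell bodies outside the striatum. In bulk tissue, fewer cells of a type and less RNA per cell cannot be told apart.

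Floxed libraries held 28132563 to 59829070 counts, of which the 39 genes took 1.08% to 1.29%, and wild-type libraries held 7116123 to 12145551, of which they took 1.28% to 1.43%. Values below are CPM, counts relative to library size after TMM scaling. Medium spiny neuron markers were present in every library: Drd1 was 138 to 335 CPM in floxed and 202 to 293 CPM in wild-type libraries, and Drd2 93.2 to 228 CPM and 171 to 352 CPM. Dnmt3a, the targeted gene, was 155, 150.4 and 139.8 CPM in Cre females, against 162, 169 and 155 CPM in GFP females, and 143, 137 and 138 CPM in Cre males, against 182, 164 and 171 CPM in GFP males. Its log2 fold change was -0.12 ± 0.06 SE in females, where the groups overlapped (adjusted p = 0.829), and -0.30 ± 0.06 SE in males, where they did not (adjusted p = 0.0149). The whole gene was counted, so reads outside the deleted part are included.

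Levels per kb of exon differed widely among the members. Snap25, a SNARE of the plasma membrane, was highest, at 593 ± 57.3 CPM per kb over the 12 floxed libraries and 609 ± 61.6 over the 12 wild-type libraries (mean ± SD). Vamp2, the vesicle SNARE, had 252 ± 13.4 and 290.2 ± 48.7 CPM per kb. Syt1, the fast calcium sensor, had 233 ± 18.7 and 238 ± 23.0. Within families the levels were uneven: Cplx2 (246 ± 25.2 and 418 ± 67.1 CPM per kb) and Cplx1 (162 ± 25.1 and 219 ± 40.3) stood far above Cplx3 (0.712 ± 0.829 and 0.769 ± 0.653), a complexin known from retinal ribbon synapses. Among Munc13 genes, Unc13a (32.0 ± 1.35 and 39.1 ± 5.37) and Unc13c (22.6 ± 3.80 and 32.9 ± 2.20) were well above Unc13b (1.67 ± 0.248 and 1.51 ± 0.153), which with Doc2a and Cplx3 made up the bottom of the order in both experiments. Of 38 neighbouring pairs in the order of means, 7 in the floxed and 5 in the wild-type experiment kept that order in all 12 libraries, Snap25 over the next gene in both. The rest exchanged places in at least 1 library and were not separated beyond their spread. The median coefficient of variation over libraries was 12.1% in the floxed and 14.4% in the wild-type experiment. In the floxed experiment 10 members varied by more than 2-fold between the highest and the lowest library and in the wild-type experiment 8 did. Cplx3 varied most, by 23.8-fold and 8.74-fold.

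**Figure D1:**
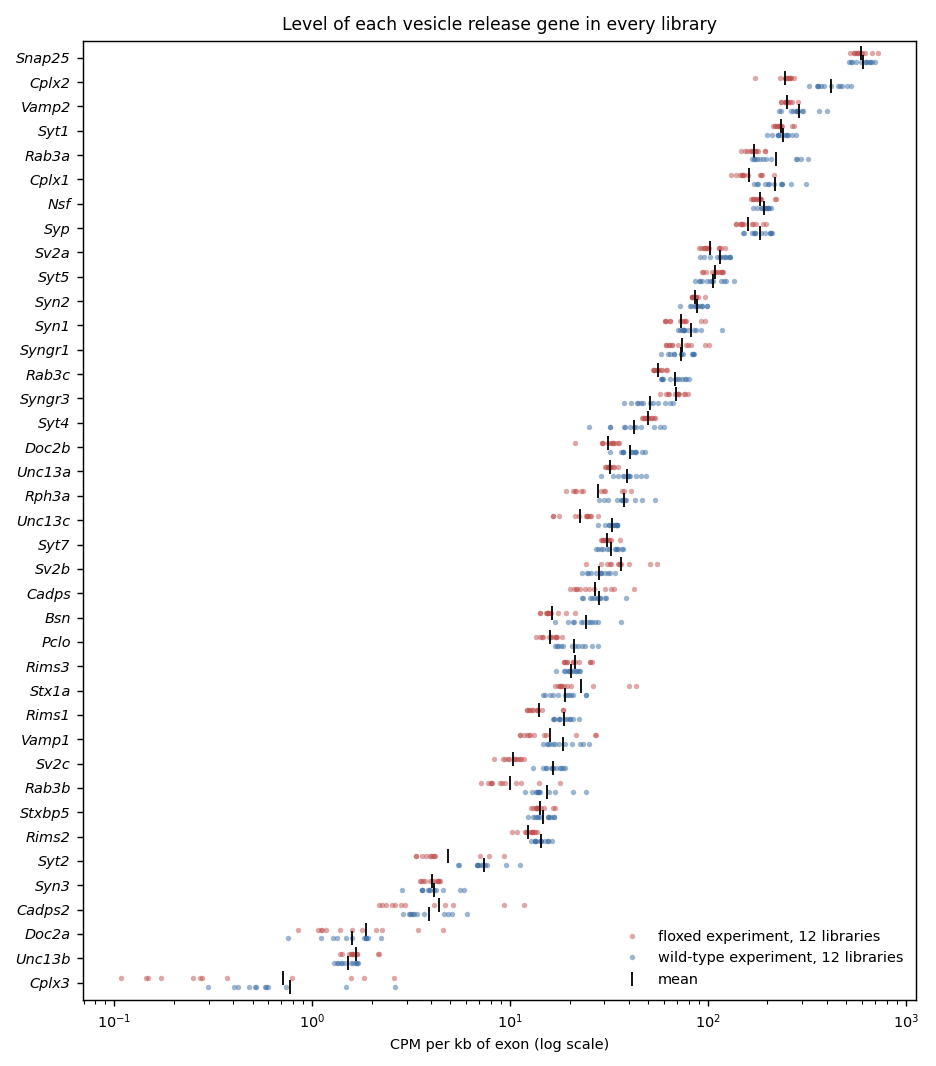
Level of each of the 39 genes in every library, in CPM per kb of exon on a log axis, for the floxed (red, upper) and wild-type (blue, lower) experiments, with a black bar at the mean. Snap25 lies highest and Cplx3 lowest, and Cplx3, Cadps2 and Doc2a spread widest among floxed libraries.

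Promoters of 29 of the 39 genes were found in the RefSeq table (GRCm38.p6). In the 250 bases before the start site these held a median of 15 CG dinucleotides (5 to 44), against a median of 6 (0 to 56) in 27025 genes. Searched on both strands, the GC box core GGGCGG, which itself holds a CG, was in 21 of 29 against 32.9% of all promoters, and TATAAA in 2 of 29 against 13% of all. The cAMP response element TGACGTCA was in 1 of 29, Syn1, against 1.62% of all. These backgrounds take in every gene with a promoter, expressed here or not, while all members passed the filter on low counts. Nothing particular to release genes is therefore read from them. A window of 250 bases is shown for 4 genes that differed in Cre males, because CG dinucleotides are among the sites that Dnmt3a can methylate, next to non-CG sites in neurons; capitals mark the CG dinucleotides, and methylation was not measured. The number of CG dinucleotides ran from 9 in Stx1a and Cplx3 to 27 in Syn1 and 44 in Cadps2.
Syn1 (chrX:20920919-20921168, minus strand): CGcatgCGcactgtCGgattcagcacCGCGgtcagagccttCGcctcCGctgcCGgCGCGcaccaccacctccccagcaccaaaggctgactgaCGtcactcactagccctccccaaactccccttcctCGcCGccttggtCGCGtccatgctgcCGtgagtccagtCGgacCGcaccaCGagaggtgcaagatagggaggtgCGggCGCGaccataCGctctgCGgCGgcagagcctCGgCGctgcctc
Stx1a (chr5:135023232-135023481, plus strand): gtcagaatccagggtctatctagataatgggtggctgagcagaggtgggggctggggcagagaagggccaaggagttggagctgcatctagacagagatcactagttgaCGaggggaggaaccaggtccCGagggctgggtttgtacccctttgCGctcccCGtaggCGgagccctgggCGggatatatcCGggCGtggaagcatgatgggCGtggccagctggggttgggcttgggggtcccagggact
Cadps2 (chr6:23839422-23839671, minus strand): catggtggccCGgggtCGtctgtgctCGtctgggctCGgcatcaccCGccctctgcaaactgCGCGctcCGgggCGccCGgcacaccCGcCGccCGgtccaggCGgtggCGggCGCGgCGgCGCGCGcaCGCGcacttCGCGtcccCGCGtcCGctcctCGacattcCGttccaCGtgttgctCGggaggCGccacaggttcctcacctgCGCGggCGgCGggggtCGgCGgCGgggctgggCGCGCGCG
Cplx3 (chr9:57606282-57606531, minus strand): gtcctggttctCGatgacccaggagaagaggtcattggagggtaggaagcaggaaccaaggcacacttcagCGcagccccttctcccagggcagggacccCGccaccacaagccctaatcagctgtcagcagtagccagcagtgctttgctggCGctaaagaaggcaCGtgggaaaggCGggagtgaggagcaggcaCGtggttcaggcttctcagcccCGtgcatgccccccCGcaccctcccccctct

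In males with AAV-CRE, at least 1 gene of 7 of the 8 roles rose relative to males with AAV-GFP, the Rab3 GTPases being the exception, and 1 priming gene fell. Of the 39 members 12 were called at an adjusted p below 0.05 (edgeR quasi-likelihood test, Benjamini-Hochberg over all genes tested), 11 higher and 1 lower, where 4.96% of all genes tested were called (3.68% higher, 1.28% lower). Among well expressed genes (average log2 CPM 4 or more), 5.74% were called, and of the 37 members at that level 9 were higher and 1 lower. The median log2 fold change was 0.26 over the members and 0.0046 over all genes tested. At an unadjusted p below 0.05 stood 27 members, 21 higher and 6 lower, against 24.8% of all genes. All 3 Cre male libraries lay above all 3 GFP male libraries for 20 members and below them for 7, against 14.7% of all genes in each direction. The count depended on single libraries: it was 21 without Cre male library 3, 4 without Cre male library 1 or 2, 3 without GFP male library 1 or 3, and 2 without GFP male library 2. DESeq2 called 21, and it also called more of all genes tested than edgeR did. The share of all genes called without each library is not given here, so a shift of the members alone is not read from these counts. In the 3 Cre male libraries, most markers of cortical excitatory neurons were far higher than in GFP males. Their values are given after the members.

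Among the synapsins, Syn1, which tethers vesicles to each other and to actin, was 305, 317 and 254 CPM in Cre males, against 202, 212 and 201 CPM in GFP males (log2 fold change 0.51 ± 0.09 SE, adjusted p = 0.0141). All Cre male libraries lay above the GFP male libraries, library 3 by the least. Syn2 was not called (log2 fold change 0.08, adjusted p = 0.362) and Syn3 lay slightly below in all 3 libraries without passing (-0.20, adjusted p = 0.181). Of the SNAREs, Stx1a, the syntaxin of the presynaptic plasma membrane, was 93.1, 86.0 and 57.1 CPM in Cre males, against 38.8, 39.7 and 38.6 CPM in GFP males (log2 fold change 1.01 ± 0.15 SE, adjusted p = 0.00806). The fitted fold was 2.02, with Cre male library 3 nearest to the GFP males. Snap25 was 1623, 1508 and 1387 CPM in Cre males, against 1171, 1286 and 1229.7 CPM in GFP males (log2 fold change 0.29 ± 0.07 SE, adjusted p = 0.0289). Vamp2 was higher without passing (0.13, adjusted p = 0.186), as was Vamp1 (0.58, adjusted p = 0.291), which was 61.2, 111 and 49.9 CPM in Cre males, against 52.0, 51.1 and 46.0 CPM in GFP males, highest in Cre male library 2.

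Calcium sensors were mixed. Doc2a, a high-affinity sensor linked to spontaneous and asynchronous release, was 8.70, 11.7 and 5.36 CPM in Cre males, against 3.50, 3.00 and 2.83 CPM in GFP males (log2 fold change 1.47 ± 0.33 SE, adjusted p = 0.0314), low counts with no overlap. Its relative Doc2b pointed the other way, at 127, 92.9 and 128 CPM in Cre males, against 144, 154 and 144 CPM in GFP males, and did not pass (log2 fold change -0.35 ± 0.11 SE, adjusted p = 0.0821). Rph3a, rabphilin, an effector of Rab3, was 170.4, 189.8 and 133 CPM in Cre males, against 99.4, 106 and 96.2 CPM in GFP males, without overlap and without passing (log2 fold change 0.71 ± 0.20 SE, adjusted p = 0.0704). Syt1 had a log2 fold change of 0.19, adjusted p = 0.127, while Syt2, Syt4, Syt5 and Syt7 had 0.50, -0.08, -0.04 and 0.08, none of them called. Doc2a overlaps Ino80e on the opposite strand, and among the other members called Syn1 overlaps Araf and Syp overlaps Gm14703; the use of strand in counting was not given, so their counts may hold reads of both genes.

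Complexins and priming genes held both the largest rise and the only fall. Cplx3 was 7.64, 4.66 and 5.42 CPM in Cre males, against 0.510, 0.438 and 0.816 CPM in GFP males (log2 fold change 3.30 ± 0.53 SE, adjusted p = 0.0112), the largest fold change of the 39 at one of the lowest levels. Cplx2, the most abundant complexin, was 1202, 857 and 1138 CPM in Cre males, against 1282, 1338 and 1237 CPM in GFP males, below in all 3 libraries but not called (log2 fold change -0.27 ± 0.10 SE, adjusted p = 0.132), and Cplx1 was not called (0.26, adjusted p = 0.242). Cadps2, which primes dense-core and synaptic vesicles, was 58.0, 73.7 and 32.1 CPM in Cre males, against 17.4, 15.8 and 16.3 CPM in GFP males (log2 fold change 1.73 ± 0.31 SE, adjusted p = 0.0185). The related Cadps did not pass (0.62, adjusted p = 0.0839), nor did Unc13b (0.30, adjusted p = 0.0848), Nsf (0.26, adjusted p = 0.0688) or Stxbp5, tomosyn (0.18, adjusted p = 0.173), all of them higher, and Unc13a had -0.02.

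Unc13c, the Munc13-3 gene best known from cerebellar granule cells, was the member that fell: it was 145, 145 and 156 CPM in Cre males, against 216, 214 and 225 CPM in GFP males (log2 fold change -0.55 ± 0.08 SE, adjusted p = 0.00786). The 3 Cre male libraries were close to each other and well below all 3 GFP male libraries, and below the females as well, at 224, 188 and 217 CPM in Cre females and 218, 244 and 196 CPM in GFP females. Its call held in all 12 fits that left out 1 library (log2 fold change -0.59 to -0.53), as did that of Stx1a (0.88 to 1.20). The largest adjusted p over these edgeR fits was 0.0485 for Unc13c and 0.049 for Stx1a, just under the threshold. Some of these fits left out a female library, which bears on the male contrast only through the shared fit.

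Active zone scaffold genes split. Rims1, which ties vesicles to calcium channels, was 128, 128 and 99.9 CPM in Cre males, against 85.6, 94.9 and 83.2 CPM in GFP males (log2 fold change 0.43 ± 0.09 SE, adjusted p = 0.0202). Bsn, Bassoon, was 338, 304 and 258 CPM in Cre males, against 244, 227 and 225 CPM in GFP males (log2 fold change 0.37 ± 0.09 SE, adjusted p = 0.0325). Both had no overlap between the groups. Rims2 lay lower without passing (-0.24, adjusted p = 0.089), and Rims3 and Pclo were not called (0.01 and -0.13). Of the Rab3 GTPases, Rab3a (0.25, adjusted p = 0.059) and Rab3b (0.73, adjusted p = 0.0957) were higher in all 3 libraries but missed the threshold, and Rab3c had -0.07.

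Vesicle membrane proteins gave 3 calls, all higher. Syp, synaptophysin, was 490.1, 509 and 436 CPM in Cre males, against 386, 381 and 359.9 CPM in GFP males (log2 fold change 0.35 ± 0.09 SE, adjusted p = 0.0464). Syngr1, synaptogyrin, was 452, 433 and 353 CPM in Cre males, against 295, 285 and 283 CPM in GFP males (log2 fold change 0.52 ± 0.11 SE, adjusted p = 0.025). Syngr3, which binds the dopamine transporter, was 155, 149.8 and 137 CPM in Cre males, against 123, 121 and 113 CPM in GFP males (log2 fold change 0.31 ± 0.07 SE, adjusted p = 0.0284). For each of them the groups did not overlap and Cre male library 3 was the lowest of the Cre males. Sv2b was higher (0.49, adjusted p = 0.0615) and Sv2c lower (-0.22, adjusted p = 0.198) without passing, and Sv2a had 0.19. Over the 11 members that rose, Cre male library 3 was the lowest Cre male library for 10 and library 1 the highest for 7. Over all 39 members library 3 was the lowest for 29, whether called or not. The share of all genes lowest in that library was not counted, so nothing is read from these counts about the members.

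**Figure D2:**
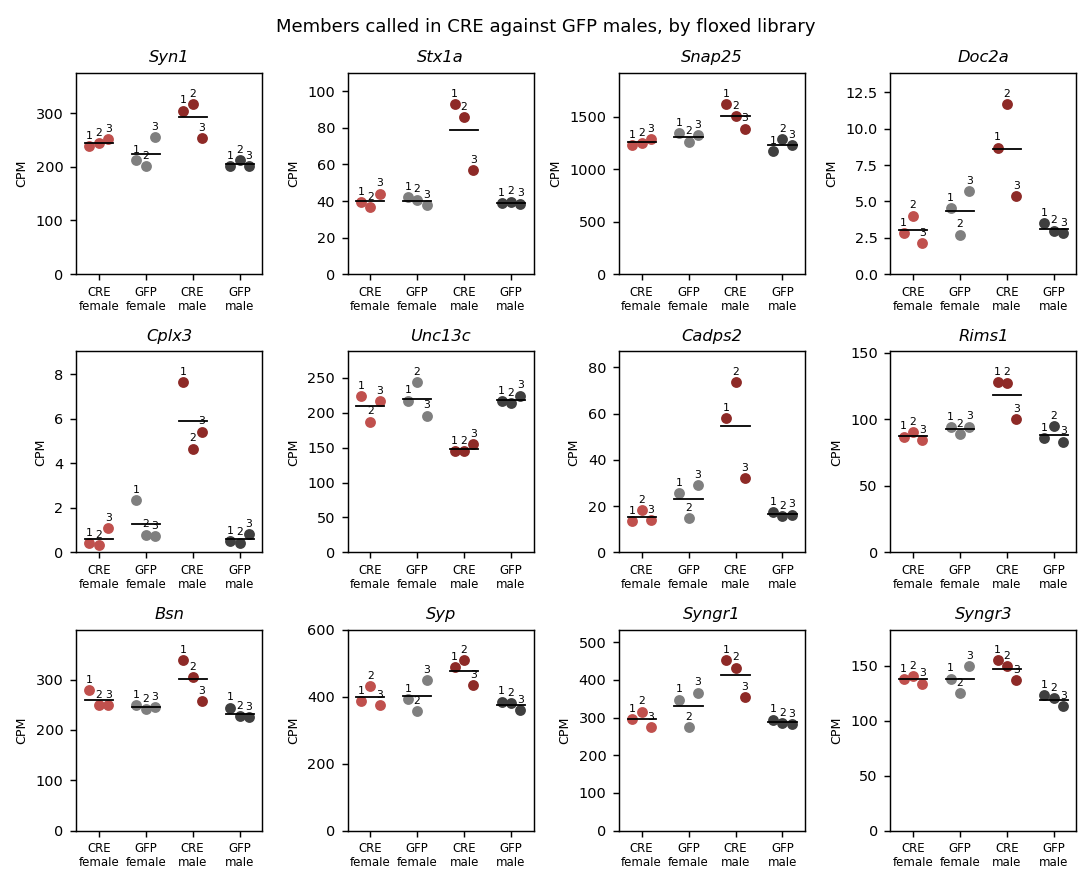
CPM of the 12 members called in Cre against GFP males in every floxed library (points numbered by library within the group, bar at the mean, each axis from 0). Unc13c lies lower in the 3 Cre male libraries, the other 11 genes lie higher, and Cre male library 3 is mostly nearest to the GFP males.

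The same libraries differed in markers of other cells. Slc17a7 (VGLUT1), which loads glutamate into vesicles of cortical neurons, was 428, 408 and 168 CPM in Cre males, against 1.29, 2.76 and 15.3 CPM in GFP males (log2 fold change 5.62 ± 1.31 SE, adjusted p = 0.0431). Of 12 cortical excitatory neuron markers 10 were called higher and 0 lower. In 1 marker that was not called, all 3 Cre male libraries lay below the GFP males. The 12 summed to 804, 808 and 417 CPM in Cre males, against 150.4, 172 and 182 CPM in GFP males. None of the 12 was at 0 in all libraries of a group. The cortical sum was lowest in Cre male library 3. The 12 medium spiny neuron markers summed to 7010, 4003 and 7505 CPM in Cre males, against 7412, 7956 and 8054 CPM in GFP males, none of them called and all 12 with a fold change below 0. The 7 choroid plexus markers summed to 175, 2059 and 75.3 CPM in Cre males, against 62.6, 54.7 and 71.9 CPM in GFP males, and oligodendrocyte markers to 3443, 5750 and 4212 CPM in Cre males, against 3541, 3878 and 4031 CPM in GFP males. The 10 striatal interneuron markers summed to 421, 472 and 406 CPM in Cre males, against 362, 361 and 329 CPM in GFP males, without overlap; 2 were called, both higher, the neuropeptide genes Sst (log2 fold change 0.54 ± 0.07 SE, adjusted p = 0.00388) and Npy (log2 fold change 0.44 ± 0.09 SE, adjusted p = 0.0226). The 6 astrocyte markers summed to 1850, 1818 and 1832 CPM in Cre males, against 1609, 1561 and 1656 CPM in GFP males, also without overlap, with none called. Sums of microglia and endothelial markers overlapped between the groups, with none called. With the cortical marker level as a covariate, or that of choroid plexus, in fits chosen after the marker levels were seen, 0 of the 39 members were called. The log2 fold change of Cplx3 was then 0.49 or 3.53, that of Stx1a 0.19 or 0.85, and that of Unc13c -0.57 or -0.49. The cortical score was 3.93 to 4.85 in Cre males and at most 2.86 in all other floxed libraries. The choroid plexus score was 2.19 to 5.52 in Cre males and at most 1.93 in the others. These fits therefore cannot tell score and group well apart, and nothing is read from the lost calls. The part of other cells in these differences was not tested.

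**Figure D3:**
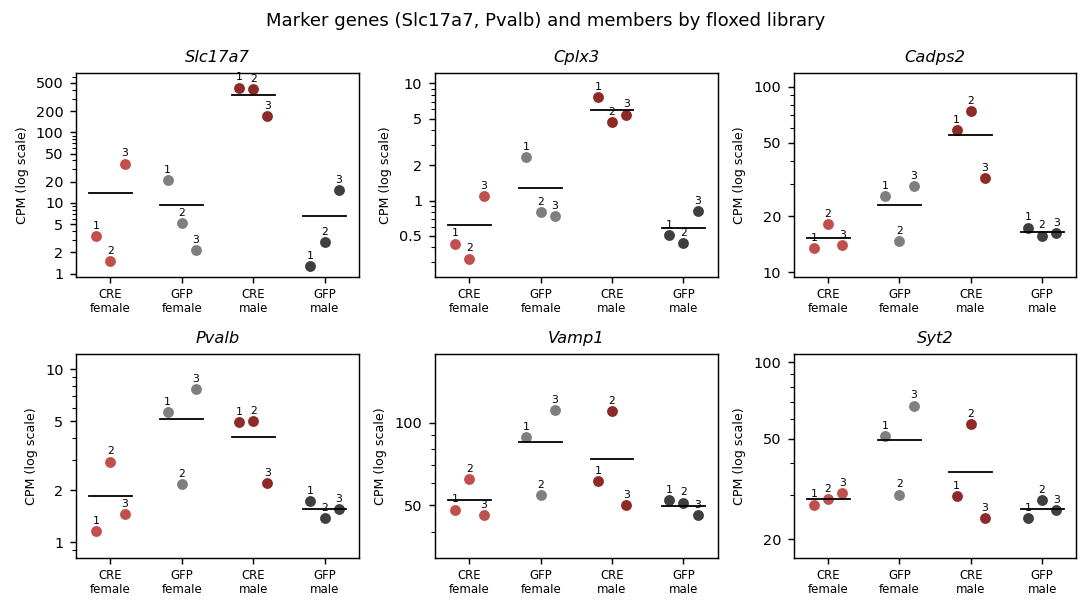
Level of the marker genes Slc17a7 and Pvalb and of Cplx3, Cadps2, Vamp1 and Syt2 in every floxed library, in CPM on log axes (points numbered by library within the group, bar at the mean). Cre males lie above all other floxed libraries for Slc17a7, Cplx3 and Cadps2, and GFP female libraries 1 and 3 stand above library 2 for Pvalb, Vamp1 and Syt2.

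In females, none of the 39 members was called with AAV-CRE (0% of all genes tested by edgeR; 0 members also by DESeq2 and by limma-voom). At an unadjusted p below 0.05 stood 4 members, against 5.96% of all genes. Syt5, a synaptotagmin of dense-core and synaptic vesicles, was 207, 206 and 204 CPM in Cre females, against 166, 185 and 172 CPM in GFP females (log2 fold change 0.24 ± 0.08 SE, adjusted p = 0.644), the 1 member whose groups did not overlap, against 11.5% of all genes. Syt2, a fast calcium sensor found in fast-spiking interneurons, was 27.4, 28.9 and 30.3 CPM in Cre females, against 51.2, 30.0 and 67.5 CPM in GFP females (log2 fold change -0.78 ± 0.34 SE, adjusted p = 0.824). Cplx1 was 303, 349.9 and 326 CPM in Cre females, against 409, 319 and 473 CPM in GFP females (log2 fold change -0.30 ± 0.13 SE, adjusted p = 0.825). Rims3 was 127, 140.2 and 126 CPM in Cre females, against 174, 140.1 and 170.5 CPM in GFP females (log2 fold change -0.30 ± 0.12 SE, adjusted p = 0.783). For these last 3 genes GFP female library 2 lay with the Cre females and GFP female libraries 1 and 3 lay above. The same libraries were high in Pvalb, a marker of fast-spiking interneurons, at 1.16, 2.92 and 1.46 CPM in Cre females, against 5.66, 2.15 and 7.66 CPM in GFP females; its part in the result was not tested. The 10 striatal interneuron markers together summed to 358 to 394 CPM in Cre females and 382 to 458 CPM in GFP females. Of the 12 members called in males, none passed in females: Syn1 was 238, 244 and 251 CPM in Cre females, against 213, 201 and 255 CPM in GFP females, with overlap and a log2 fold change of 0.13. Stx1a had -0.0034, Snap25 -0.06, Unc13c -0.07, Rims1 -0.09, Bsn 0.08, Syp -0.0091, Syngr1 -0.16 and Syngr3 4.2e-05. Doc2a (-0.54), Cadps2 (-0.60) and Cplx3 (-1.03) lay below 0 in females, on the other side from males. The 95% interval lay within 1.5-fold either way for 30 of the 39 members, and within 2-fold for 34. It was widest for Cplx3 (-2.20 to 0.15), and the value of Cplx3 in males, 3.30, lies outside it.

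**Figure D4:**
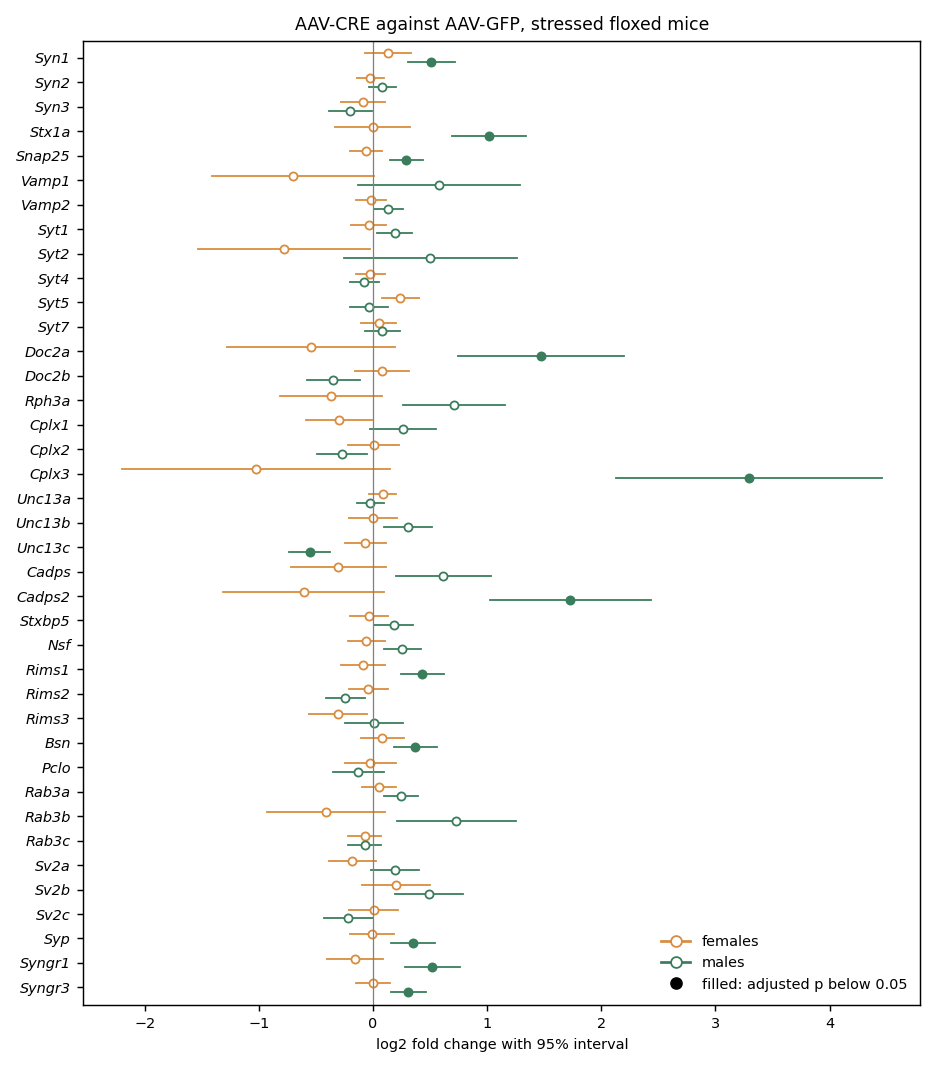
Log2 fold change of Cre over GFP with its 95% interval for the 39 members, in females (orange) and males (green), filled where the adjusted p was below 0.05. No female point is filled, and 12 male points are, 11 to the right of 0 and Unc13c to the left.

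Averaged over the sexes, 3 members were called, against 1.42% of all genes tested. Syn1 (log2 fold change 0.32 ± 0.07 SE, adjusted p = 0.0382) and Stx1a (log2 fold change 0.50 ± 0.10 SE, adjusted p = 0.043) were higher and Unc13c (log2 fold change -0.31 ± 0.06 SE, adjusted p = 0.0282) was lower. No member was called in 8 of the 12 fits that left out 1 library; 1 was called with Cre female library 1 or Cre male library 2 left out, 2 without GFP female library 3 and 6 without Cre male library 3. The difference between the sexes in the effect of Cre was called for 0 members by edgeR, against 0.0114% of all genes tested, with 24 members at an unadjusted p below 0.05 against 17.5% of all genes. Smallest was the p of Cplx3, whose log2 fold change was lower by 4.32 in females than in males (difference -4.32 ± 0.75 SE, adjusted p = 0.0736). Cadps2 (-2.33, adjusted p = 0.0829) and Stx1a (-1.02, adjusted p = 0.0829) followed, written as female minus male. Syngr1 (-0.68), Rims1 (-0.52), Doc2a (-2.01) and Unc13c (0.49) came next, each with an adjusted p of 0.097. DESeq2 called 11 members in this contrast and limma-voom 0. With edgeR, 11 were called without Cre male library 3, 5 without GFP female library 2 and 1 without Cre female library 3. The share of all genes called is not given for these alternative fits or for those averaged over the sexes. Nothing is therefore read from their counts about the members.

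Other genes of the vesicle cycle were also called in Cre males. Of 38 further release genes tested, 3 were higher and 0 lower, against 3.68% of all genes tested higher and 1.28% lower: Syt17 (log2 fold change 2.42 ± 0.43 SE, adjusted p = 0.0154), the liprin gene Ppfia3 (log2 fold change 0.36 ± 0.09 SE, adjusted p = 0.0464) and Napb, beta-SNAP, which works with Nsf (log2 fold change 0.29 ± 0.07 SE, adjusted p = 0.0471). The median log2 fold change of the 38 was 0.06, against 0.0046 over all genes tested, and nothing is read from counts of this size about the lists. Syt17 was 17.9, 28.1 and 8.03 CPM in Cre males, against 3.43, 2.89 and 3.80 CPM in GFP males, highest in Cre male library 2. Of 21 genes for the endocytosis of vesicles, 3 were higher and 0 lower, with a median of 0.14, set against the same shares: Ap2s1, a clathrin adaptor subunit (log2 fold change 0.39 ± 0.07 SE, adjusted p = 0.0133), Amph, amphiphysin (log2 fold change 0.41 ± 0.10 SE, adjusted p = 0.0479), and Sh3gl2, endophilin (log2 fold change 0.33 ± 0.08 SE, adjusted p = 0.0482). Ap2s1 was 74.0, 77.4 and 74.8 CPM in Cre males, against 60.7, 55.4 and 56.5 CPM in GFP males, and 69.1, 72.8 and 68.2 CPM in Cre females, against 60.7, 53.1 and 65.3 CPM in GFP females, with no overlap in either sex; averaged over the sexes it was called (log2 fold change 0.31 ± 0.05 SE, adjusted p = 0.016), while in females alone it was not (0.23, adjusted p = 0.63). Of 6 vesicular transmitter transporters tested, 1 was called in Cre males, Slc17a7. Slc17a8, the glutamate transporter of cholinergic interneurons, was 15.4, 17.9 and 19.5 CPM in Cre females, against 25.2, 22.1 and 23.7 CPM in GFP females, without overlap, and was lower over both sexes (log2 fold change -0.35 ± 0.07 SE, adjusted p = 0.0322) but not called in females (-0.43, adjusted p = 0.474) or males (-0.27, adjusted p = 0.123).

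Stress in wild-type mice moved none of the 39 members past the threshold. In females 0 members were called, against 0% of all genes tested by edgeR, with 2 members at an unadjusted p below 0.05, against 1.68% of all genes. In males 0 were called, against 0.00656% of all genes, with 1 member at an unadjusted p below 0.05, against 2.81%. Averaged over the sexes 0 were called, against 0.0131%, with 4 at an unadjusted p below 0.05, against 3.21%, and for the difference between the sexes 0, against 0%, with 0 at an unadjusted p below 0.05, against 1.19%. The smallest p there was that of Syt2, whose female effect minus male effect was -0.53 on the log2 scale (edgeR unadjusted p = 0.0687, adjusted p = 1). DESeq2 and limma-voom also called 0 members in these 4 contrasts. In females, where same-numbered libraries deviated together, the fit with the number as a block called 0 members and 5 genes of all tested, against 0 genes without it. The median log2 fold change was -0.04 in females and -0.0049 in males, against -0.0058 and -0.0011 over all genes tested.

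Among the members of smallest p, Cplx3 was 1.76, 1.25 and 1.53 CPM in stressed females, against 4.36, 7.72 and 1.52 CPM in control females (log2 fold change -1.58 ± 0.48 SE, adjusted p = 0.9999). The groups overlapped through control female library 3, and the level is near 1 CPM. Over 21 alternative fits the log2 fold change of Cplx3 ran from -2.0 to -0.46. None of them called it, though its adjusted p came near the threshold in at least 1. Slc17a7 was 9.89, 21.7 and 26.6 CPM in stressed females, against 41.0, 109 and 29.9 CPM in control females. Among the control females it was high where Cplx3 was high. Among the stressed females it was lowest in library 1, where Cplx3 was highest. The part of Slc17a7 was not tested. In stressed males Cplx3 was 0.883, 1.19 and 1.73 CPM, against 2.19, 1.41 and 1.70 CPM in control males. Pclo, Piccolo, was 410.1, 452 and 528 CPM in stressed females, against 614, 509.5 and 573 CPM in control females (log2 fold change -0.29 ± 0.13 SE, adjusted p = 0.9999), and 379.5, 387 and 373 CPM in stressed males, against 401, 472 and 484 CPM in control males. It lay below the controls in the mean of both sexes (log2 fold change -0.27 ± 0.09 SE, adjusted p = 0.9997), as did Unc13a (log2 fold change -0.26 ± 0.10 SE, adjusted p = 0.9997), and neither passed. Syt2 was 81.5, 49.5 and 69.2 CPM in stressed males, against 49.98, 39.5 and 55.2 CPM in control males (log2 fold change 0.47 ± 0.19 SE, adjusted p = 0.9999), with overlap. In the same comparison choroid plexus markers summed to 78.8 to 193 CPM in stressed males and 44.0 to 2625 CPM in control males, high in 2 of the 3 control libraries; their part was not tested. Vamp1 lay higher over both sexes (log2 fold change 0.29 ± 0.13 SE, adjusted p = 0.9997) without passing. Pvalb was 13.6, 4.12 and 10.6 CPM in stressed males, against 5.53, 2.61 and 7.15 CPM in control males. It followed the order of Syt2 in both groups, and its part was not tested. The 10 striatal interneuron markers together summed to 460 to 654 CPM in stressed males and 503 to 614 CPM in control males. Of these 10 markers 4 had a fold change above 0 and 6 below.

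In stressed against control females the groups did not overlap for 1 member, against 5.3% of all genes, and in males for 5, against 7.91%. In females this was Rims1, at 123, 130.4 and 134 CPM in stressed and 153, 143 and 137 CPM in control mice. In males Doc2a, Unc13c and Cadps lay above and Unc13a and Pclo below, with log2 fold changes of 0.51, 0.19, 0.14, -0.28 and -0.25; these 6 genes were picked after their values were seen and none was called.

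The intervals rest on 3 libraries a group and on the fit without the library number as a block. They therefore leave out the pairing of same-numbered libraries in wild-type females, and any in wild-type males, where some same-numbered libraries also deviated together. The 95% interval of the stress effect lay within 1.5-fold either way for 28 of the 39 members in females and 30 in males, and within 2-fold for 38 and 37. Snap25 had an interval of -0.40 to 0.19 on the log2 scale in females and -0.24 to 0.35 in males, Syt1 -0.31 to 0.28 and -0.32 to 0.26, and Unc13c -0.27 to 0.18 and -0.04 to 0.42. Stx1a, called in Cre males, had log2 fold changes of -0.17 and -0.0049.

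**Figure D5:**
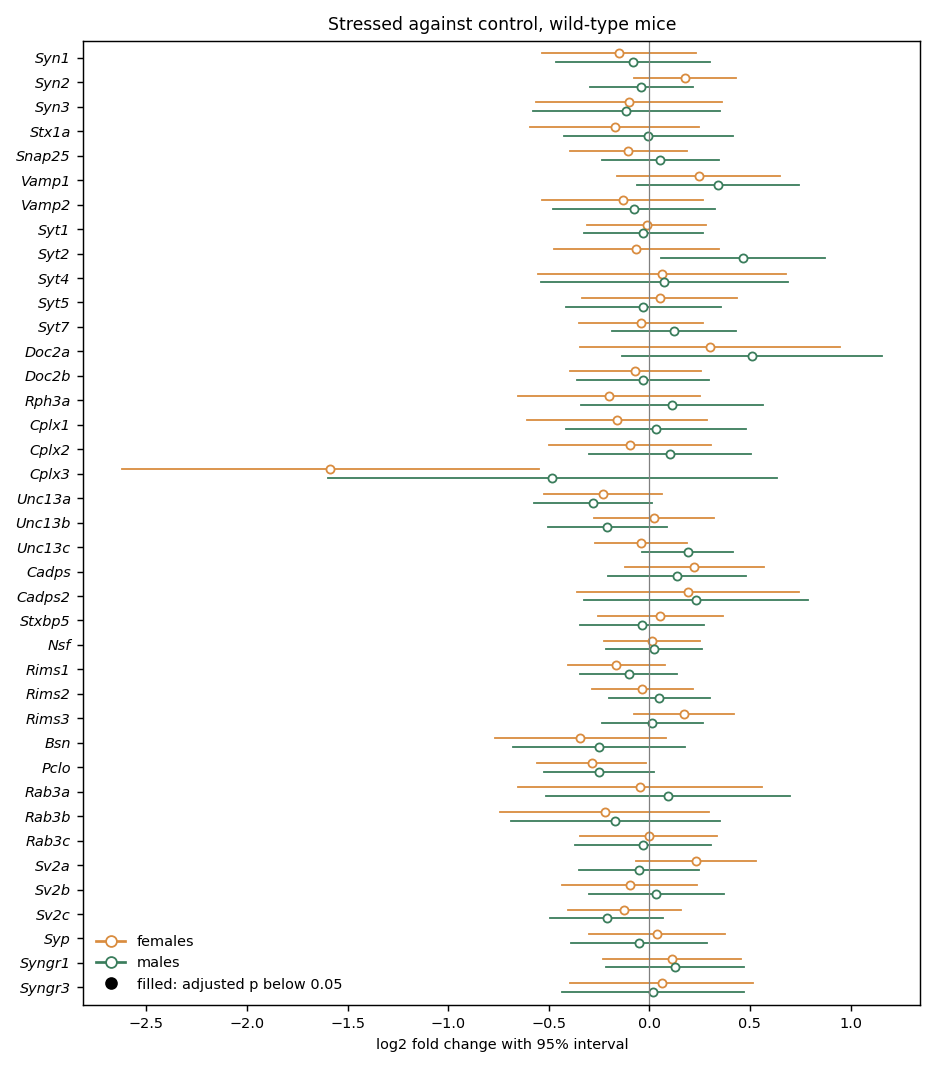
Log2 fold change of stressed over control with its 95% interval for the 39 members, in wild-type females (orange) and males (green). No point passed the adjusted p of 0.05, and Cplx3 in females lies farthest from 0.

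Libraries numbered 1 stood apart in the wild-type experiment. Rab3a, the main Rab of synaptic vesicles, was 499 to 574 CPM in the 4 libraries numbered 1, in each of the 4 groups, and 300.4 to 371 CPM in the other 8. Syn1, Doc2b and Rab3b were likewise above in all 4, and Stxbp5 and Rab3c below. These 6 of 39 members compare with 16.1% of all genes tested, so the members were near the background. What the number marks was not given in the sources used here.

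Between the sexes, averaged over the other factor, 0 members were called in the floxed experiment (0.0682% of all genes tested by edgeR) and 0 in the wild-type experiment (0.0393%), with 8 and 3 members at an unadjusted p below 0.05, against 6.68% and 5.03% of all genes. In wild-type mice these were Pclo (log2 fold change 0.30 ± 0.09 SE, adjusted p = 0.971), Rims1 (log2 fold change 0.18 ± 0.08 SE, adjusted p = 0.971) and Cplx3 (log2 fold change 0.80 ± 0.36 SE, adjusted p = 0.971), all higher in females. In floxed mice they were Stx1a, Doc2a, Cplx3, Unc13b, Cadps2, Rims1 and Sv2b, lower in females (-1.05 to -0.19), and Unc13c, higher in females (0.25). This average takes in the Cre males, where Stx1a, Doc2a, Cplx3, Cadps2 and Rims1 were called higher than in GFP males and Unc13c lower. The Cre effect, female minus male, was -4.32 for Cplx3, -2.33 for Cadps2, -2.01 for Doc2a and 0.49 for Unc13c, none called. The average therefore need not hold in GFP mice, where the sexes were not compared alone. DESeq2 called 3 of the 39 members in the floxed and 0 in the wild-type contrast, and edgeR called 4 in the floxed contrast without Cre male library 3. The share of all genes called in these fits is not given.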

How the data were processed

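The authors deposited unscaled whole-number counts, 1 row for each Ensembl gene ID. The submitters' processing notes name TopHat2 2.0.9, Bowtie2 2.1.0 and HTSeq 0.6.0, and the builds mm9 and NCBIM37. Settings, strand and the treatment of reads that fit 2 genes were not given in the sources used here, which bears on overlapping genes and paralogs. Symbols came from the reference's name table (32919 of 37991 IDs), exon lengths from GENCODE M21 (GRCm38), promoters from RefSeq. The members and lists were chosen with earlier results of these data known.

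Each experiment was fitted apart in R 4.3.3 with edgeR 4.0.16: filterByExpr (minimum count 10), TMM factors and a robust quasi-likelihood model with 1 mean for each of 4 groups. Contrasts were stressed minus control and Cre minus GFP in each sex, their mean, their difference (female minus male), and female minus male. A gene was called at a Benjamini-Hochberg adjusted p below 0.05 over all genes tested. SE is the log2 fold change divided by the square root of the F statistic, and intervals are at 95%. The libraries are the replicates and intervals cover the spread between them. Members were named with their test where the unadjusted p was below 0.05, otherwise the 3 of smallest p, and up to 4 genes of each other list. The fit was checked on simulated counts. Alternatives were DESeq2 size factors, upper-quartile scaling, no filter on low counts, DESeq2 1.42.0, limma-voom (limma 3.58.1), a fit of the 2 groups alone, the library number as a block, leaving out each library, and, chosen after the marker levels were seen, a marker score (mean log2 of CPM plus 0.5) as a covariate.

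Same-numbered libraries deviated together in wild-type females (correlations of the deviations from the group mean over all genes 0.617, 0.341 and 0.564), so there the numbers pair the samples; this comes from the data, not the labels. In wild-type males 2 of the 3 pairs did so (0.384 and 0.292) and the other was weak (0.0869). Male pairs of unlike number had -0.312 to 0.0918, and each stressed male library went best with the control of its own number. The numbers were still not taken as pairs there in the main fit, and the fit with them as a block was run as an alternative. In floxed females (0.152, -0.17 and -0.459) and males (-0.1, 0.0767 and 0.178) same-numbered libraries did not deviate together in every pair. No 2 libraries of a group agreed within sampling noise. The authors' comparison lists were not used here.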

Additional observations from a re-analysis of the deposited data

How the results depend on the processing

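The number of members called was 0 in the 5 wild-type contrasts and in Cre against GFP females under all alternatives run, the library number as a block included. In Cre against GFP males it was 12 and stayed at 9 to 12 with DESeq2 size factors, upper-quartile scaling, no filter on low counts, limma-voom and the 2-group fit. It was 21 with DESeq2 (18 higher, 3 lower) and 5 with the replicate block (Cplx3, Rims1, Stx1a, Syn1 and Unc13c). With the cortical or the choroid plexus score as a covariate it was 0, in fits chosen after seeing the data. Both scores were higher in every Cre male library than in all other floxed libraries, so these fits cannot tell score and group well apart. Leaving out 1 library gave 2 to 21. Averaged over the sexes it was 3 in the fit reported, 5 with DESeq2, 0 with the replicate block, 0 with either score, and 0 to 6 without 1 library. The difference between the sexes in the Cre effect gave 0, 11 with DESeq2 and 0 to 11 without 1 library; female against male floxed mice gave 0, 3 with DESeq2 and 0 to 4 without 1 library. In the floxed experiment same-numbered libraries share only a number, and Cre males with the replicate block had 191 genes called of all tested, against 872 without it and 1811 with DESeq2. In wild-type males the block gave 4 genes called, against 1 without it, and over both sexes 13 against 2. DESeq2 called 34 genes in Cre against GFP females, where edgeR called 0. For the other alternatives in the floxed experiment, the count of all genes called is not given beside that of the members.

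Single members were followed in the contrasts where their unadjusted p was below 0.05 (otherwise the 3 of smallest p); among these, 13 values changed sign with the cortical score as a covariate. In Cre males these were Rab3b (-0.054), Cplx2 (0.017), Unc13b (-0.23), Nsf (-0.0023), Rims2 (0.11), Sv2c (0.079) and Sv2b (-0.13); over both sexes Snap25 (-0.014), Unc13b (-0.12), Rims2 (0.037) and Cplx3 (-0.34); and between the sexes Syt5 (-0.030) and Unc13b (0.21). The cause was not tested. Mean CPM was lowest for Cplx3 (2.1 in floxed and 2.27 in wild-type libraries) and Doc2a (4.76 and 4.05). Their stress intervals, alone among the members, reached 2-fold in at least 1 sex. From 3 libraries a group, with no block for the library number, stress intervals reached 1.5-fold for 11 members in females and 9 in males.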
